A study of Homo sapiens with 5 samples.

Results

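The genes described here encode the aminoacyl-tRNA synthetases, the enzymes that join each amino acid to its transfer RNA, together with scaffold proteins that hold several of them in one complex. They were taken as a list of 37 symbols, and 35 were found among 18417 genes with 1 named probe set each. These were 18 cytosolic enzymes or subunits, 16 mitochondrial enzymes and the scaffold gene AIMP1. The scaffold genes AIMP2 and EEF1E1 were not analysed here. For VARS1 and VARS2, which had several probe sets, the one with the highest mean over the 5 arrays was kept.

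RNA came from 5 stable clones of Nalm6, an established human leukaemia line of the B-cell precursor lineage, and was read on Affymetrix whole-transcript arrays. Control clones 1 and 2 expressed a short hairpin RNA (shRNA) of nonsense sequence. Clones 1, 2 and 3 of the other group expressed a shRNA directed at MondoA. Each clone gave 1 array, so the spread within a group holds the variation of clones and of array measurement, which cannot be told apart. All clones grew in RPMI medium with 20% heat-inactivated serum, gentamycin, added glutamine and 200 mg/dl glucose. MondoA is the product of MLXIP, a partner of MLX that activates transcription when glucose metabolites accumulate. Values are deposited RMA expression taken as log2, and a difference is the mean of the MondoA shRNA arrays minus the mean of the control arrays. A difference of 1 is a doubling if the base is 2, which is what RMA gives and is not stated in the labels. An error is the SD within a group (n = 2 controls, n = 3 MondoA shRNA clones) unless named SE.

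The RNA of the targeted gene did not separate the groups. MLXIP read 6.42 in both controls, against 6.42, 6.47 and 6.29 in the MondoA shRNA clones, a difference of -0.03 (95% interval -0.21 to 0.16, adjusted p = 0.959 by limma). The groups are therefore named by their labels, and every direction below refers to the label. Of 10 markers of B-cell precursors listed, 8 were measured, all above the median gene level of 4.15, and PAX5 read from 8.96 to 9.11 and MME (CD10) from 10.26 to 10.43. Of these 8, 6 had higher and 2 had lower means in the MondoA shRNA clones. The lower ones were DNTT (-1.19, unadjusted p = 0.011 by limma) and RAG1 (-0.45, unadjusted p = 0.11). Higher were CD79A (0.91, unadjusted p = 0.00926), CD79B (0.25, unadjusted p = 0.0056), IGLL1 (0.21, unadjusted p = 0.247), VPREB1 (0.11), MME (0.02) and PAX5 (0.005). The adjusted p was 0.833 for DNTT, RAG1, CD79A, CD79B and IGLL1. The part of these markers in the results below was not tested. Of 19 measured markers of T and natural killer, myeloid, erythroid and fibroblast cells, 16 lay below the median gene level, CD3D, CD3E, CD14, MPO and COL3A1 among them, and NKG7, KLF1 and COL1A1 lay above it at mean levels of 6.46, 4.66 and 4.79. Detection above background was not assessed for any gene, but all 35 members lay above the median gene level.

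Each synthetase recognises its amino acid and the matching transfer RNAs, and its product feeds the ribosome. The cytosolic and mitochondrial sets are mostly encoded by separate nuclear genes, with the mitochondrial enzymes imported after synthesis, while GARS1 and KARS1 each supply both compartments. In the cytosol EPRS1, IARS1, LARS1, MARS1, QARS1, RARS1 and KARS1 belong to the multisynthetase complex. When charged transfer RNA runs short, the kinase GCN2 (EIF2AK4) phosphorylates eIF2 and the factor ATF4 accumulates, and many cytosolic synthetase genes are known targets of ATF4.

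Promoter sequence was searched for letters found in elements that ATF4 and MondoA are known to bind. A window of 300 bases, from 250 before to 50 after the annotated start, was available for 30 of the 35 members (RefSeq, GRCh38.p14). A pair of motifs was searched on both strands, TGATGNAA for the composite element bound by ATF4 with C/EBP partners, and CACGTG, the E-box found in elements bound by MondoA and by MYC. No match of one overlapped a match of the other. The composite letters were found in 5 of 15 cytosolic windows (33.3%), in 1 of 14 mitochondrial windows (7.14%) and in 3.67% of all 27305 windows of that length. All 5 cytosolic matches had the form TTGCATCA, which with its reverse complement was present in 0.923% of all windows. The windows below put that match in capitals within 30 bases, read 5′ to 3′ on the strand of the gene, because 5 members share it.

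AARS1: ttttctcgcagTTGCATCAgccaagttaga
CARS1: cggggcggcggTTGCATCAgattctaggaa
IARS1: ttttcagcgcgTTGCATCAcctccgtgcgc
MARS1: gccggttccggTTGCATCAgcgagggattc
TARS1: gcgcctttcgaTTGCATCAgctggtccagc

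They lie at AARS1 (chr16:70289675-70289704, minus strand), CARS1 (chr11:3057407-3057436, minus strand), IARS1 (chr9:92293692-92293721, minus strand), MARS1 (chr12:57488053-57488082, plus strand) and TARS1 (chr5:33440956-33440985, plus strand). In CARS1, IARS1, MARS1 and TARS1 the match began within 13 bases of the annotated start, and in AARS1 it began at position -187 from it. The mitochondrial match, in YARS2, had the form TGATGGAA. A match in these letters is a description of the window and not a measured binding site.

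The E-box was found in 4 of 30 member windows (13.3%), against 7.43% of all windows. It was present in IARS1, CARS2, EARS2 and MARS2, and the 3 mitochondrial windows are given with the E-box in capitals because it lies within 15 bases of the start in each.

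CARS2: gctgggatgcaCACGTGcttcgctaacagg
EARS2: agggagaagccCACGTGtgctattccatcc
MARS2: tgcgcctctcaCACGTGctgtcagaacgcc

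They lie at CARS2 (chr13:110706500-110706529, minus strand), EARS2 (chr16:23557347-23557376, minus strand) and MARS2 (chr2:197705347-197705376, plus strand).

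Across the set, the estimated differences between the labelled groups were mostly small, and EPRS1 had the one large estimate among the members. The intervals of some members were wide. Those of FARSB (-0.74 to 0.89), WARS2 (-0.23 to 0.69) and CARS2 (-0.83 to 0.52) reached the size of the EPRS1 estimate, 0.68, in at least 1 direction. Of the 35 members, 33 (94.3%) had a difference within 0.2 of 0, a share that was 88.1% over all genes and 79.0% over the 7450 genes with a mean level above 5. The median difference was -0.03, with 23 members below 0, 11 above and WARS1 at 0, against a median of 0.00 over all genes. None passed an adjusted p of 0.05 by limma, and 0 of 18417 genes did (0%). At an unadjusted p under 0.05 by limma stood 1 of 35 members (2.86%). The share was 3.73% over all genes and 6.39% over genes with a mean level above 5, where 34 of the members lie. The members' count is not above either background. The plot of members by array shows EPRS1 to the right of the other genes and the points of MondoA shRNA array 1 to the left in many rows.

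**Figure D1:**
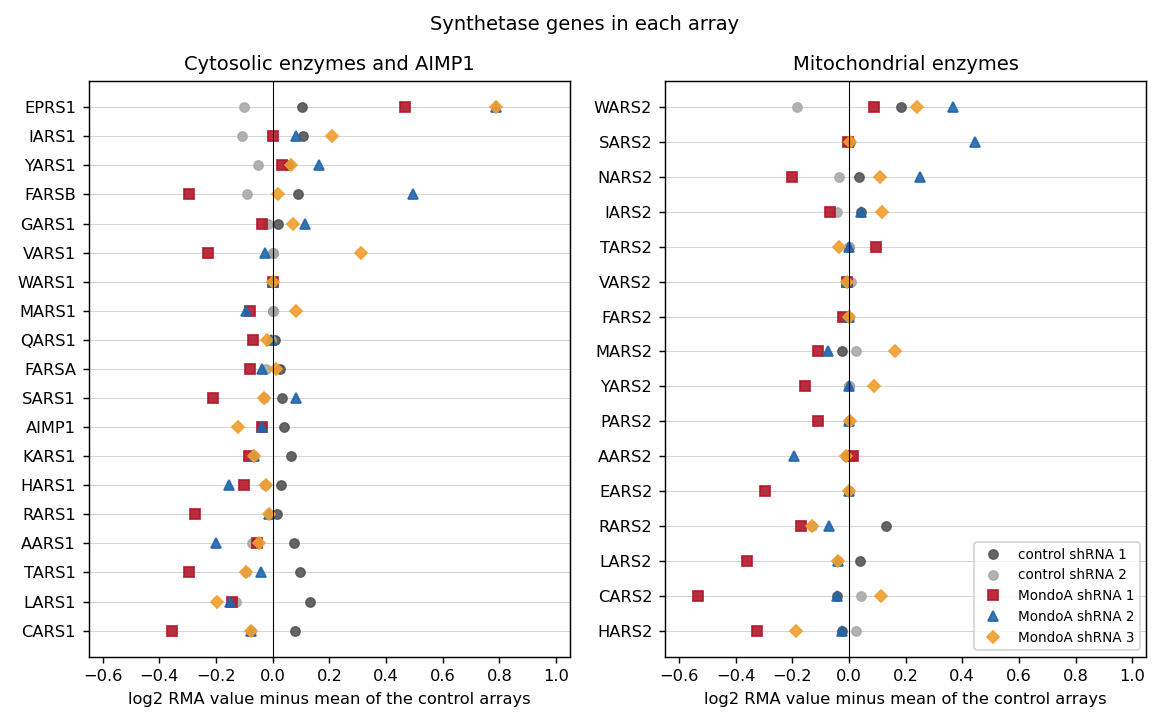
Each row is a gene, sorted by its difference, and each point is 1 array, as the log2 RMA value minus the mean of the 2 control arrays (horizontal axis). Circles are control shRNA arrays, and squares, triangles and diamonds are MondoA shRNA arrays 1, 2 and 3. EPRS1 is the gene with all 3 MondoA shRNA arrays above both controls.

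EPRS1 encodes the bifunctional enzyme that charges both glutamate and proline in the cytosol and sits in the multisynthetase complex. It read 8.47 and 8.26 in controls 1 and 2, and 8.83, 9.15 and 9.15 in the MondoA shRNA clones 1, 2 and 3. Every MondoA shRNA array was above both control arrays, and array 1 was the lowest of the 3. The difference was 0.68 ± 0.14 (SE), a 1.60-fold higher mean, with a 95% interval from 0.26 to 1.10. Its unadjusted p was 0.0123 and its adjusted p 0.833 by limma, so it did not pass over all genes. An exact two-sided permutation test over the 5 arrays gave p = 0.1 for EPRS1 and likewise for LARS1, a member separated on the lower side. This is the smallest p its 10 splits allow. The permutation test therefore could not reach 0.05, and it adds nothing to the separation stated above. A difference at least as large as that of EPRS1 on the higher side was seen in 41 of 18417 genes (0.223%), and in 27 of the 7450 genes with a mean level above 5. Without control array 2 the difference was 0.58 and its unadjusted p by limma was 0.0754, and without MondoA shRNA array 1 the difference was 0.79.

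EPRS1 lies on the minus strand of chromosome 1, and its window (chr1:220046456-220046755) is given because it was the one member that stood apart. Neither of the motifs searched was present in it, which says only that these letters are not in this window.

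EPRS1: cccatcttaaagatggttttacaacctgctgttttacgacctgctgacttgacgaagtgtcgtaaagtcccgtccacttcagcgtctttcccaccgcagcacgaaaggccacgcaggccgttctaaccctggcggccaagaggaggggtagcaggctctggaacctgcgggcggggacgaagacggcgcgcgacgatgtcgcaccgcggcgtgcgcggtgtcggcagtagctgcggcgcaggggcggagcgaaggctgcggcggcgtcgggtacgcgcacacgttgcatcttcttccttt

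The genes beside EPRS1 had estimates near 0. Among the 6 measured genes on each side, differences ran from -0.08 to 0.14 with a median of 0.01, and 0 of 12 had an unadjusted p under 0.05 by limma (3.73% of all genes did). Only 4 of these 12 genes had a mean level above 5, RRP15, BPNT1, IARS2 and RAB3GAP2. BPNT1, the next gene, which encodes a nucleotidase, differed by 0.11 with an interval from -0.45 to 0.66 that reaches close to the estimate for EPRS1. IARS2, the mitochondrial isoleucine enzyme, lies 2 measured genes away. It read 7.65 and 7.57 in the controls, against 7.54, 7.65 and 7.73 in the MondoA shRNA clones. Its groups overlapped, with a difference of 0.03 (interval -0.17 to 0.24).

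**Figure D2:**
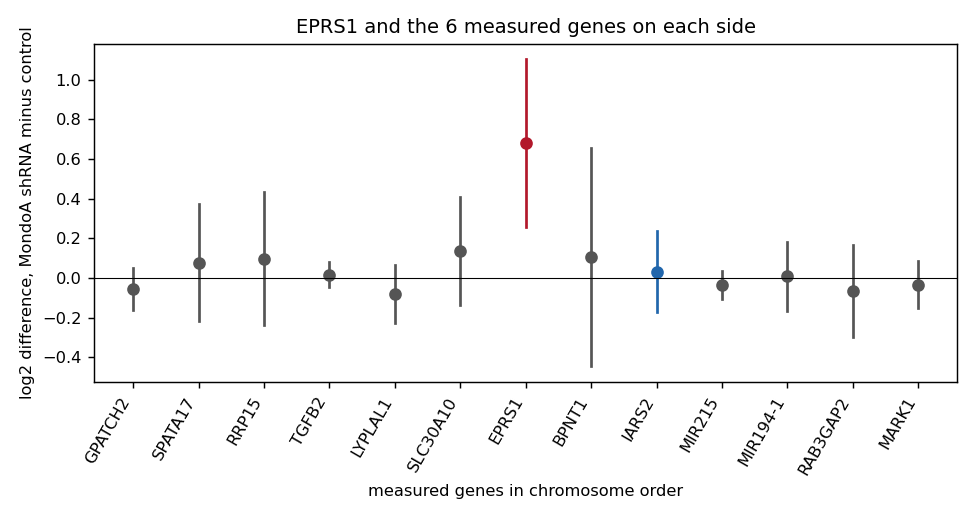
Points are log2 differences (MondoA shRNA minus control, vertical axis) with 95% limma intervals for EPRS1 (red), IARS2 (blue) and the other measured genes beside them in chromosome order. The interval of EPRS1 starts at 0.26, and those of all 12 neighbours include 0.

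The other 6 enzymes of the multisynthetase complex had differences between -0.16 and 0.10. LARS1, the leucine enzyme, which also serves as a leucine sensor for mTORC1, read 8.07 and 7.81 in the controls, against 7.79, 7.79 and 7.74 in the MondoA shRNA clones. It was the one member with every MondoA shRNA array below both controls, although the highest of them lay just below control array 2. Of 35 members 1 separated on the lower side, where 5.18% of all genes did, and 1 on the higher side, where 4.85% did. Among the 7450 genes with a mean level above 5, 690 separated on the lower and 577 on the higher side. The LARS1 difference was -0.16 (95% interval -0.43 to 0.10, adjusted p = 0.833 by limma). Without control array 1, the high one, it was -0.03, and without control array 2 it was -0.29.

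RARS1, the arginine enzyme, read 7.91 and 7.89 in the controls, against 7.63, 7.89 and 7.89 in the MondoA shRNA clones. Its difference of -0.10 came with MondoA shRNA array 1 alone below the rest. IARS1, the isoleucine enzyme, differed by 0.10, KARS1, the lysine enzyme, by -0.07, QARS1, the glutamine enzyme, by -0.03 and MARS1, the methionine enzyme, by -0.03. For QARS1 the interval ran from -0.10 to 0.04, so a difference as large as that of EPRS1 lies outside it. The scaffold gene AIMP1, whose product binds the complex and is also secreted as a cytokine precursor, read 4.88 and 4.80 in the controls, against 4.80, 4.80 and 4.72 in the MondoA shRNA clones. These ranges touched, and the difference was -0.07 (interval -0.19 to 0.06). The 7 enzymes of the complex had a median difference of -0.03 and the 11 cytosolic enzymes outside it -0.04.

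Outside the complex, CARS1, the cysteine enzyme, read 7.76 and 7.60 in the controls, against 7.32, 7.60 and 7.60 in the MondoA shRNA clones. TARS1, the threonine enzyme, read 9.44 and 9.25 in the controls, against 9.05, 9.30 and 9.25 in the MondoA shRNA clones. AARS1, the alanine enzyme, read 9.25 and 9.10 in the controls, against 9.12, 8.98 and 9.13 in the MondoA shRNA clones. The groups overlapped in TARS1 and AARS1 and touched at 7.60 in CARS1, and control array 1 was the highest array in all 3 genes. Their differences were -0.17 (interval -0.53 to 0.19), -0.14 (-0.47 to 0.18) and -0.10 (-0.33 to 0.13), each with an adjusted p of 0.833 by limma.

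FARSA and FARSB encode the catalytic alpha and the beta subunit of the cytosolic phenylalanine enzyme. FARSA varied little, with an SD of 0.03 in the controls, 0.05 in the MondoA shRNA clones and a difference of -0.04. FARSB had the widest spread among the MondoA shRNA arrays of any member, reading 7.76, 8.55 and 8.08 in them and 8.15 and 7.97 in control arrays. Its difference of 0.07 turned to -0.14 without MondoA shRNA array 2. VARS1, the valine enzyme, was also spread, at 7.37, 7.57 and 7.91 in the MondoA shRNA clones against 7.60 in both control arrays, and its difference of 0.02 turned to -0.13 without array 3. WARS1, the tryptophan enzyme, had the same value, 8.50, in all 5 arrays. RMA gives such ties, and 12 of the 35 members (34.3%) had the same value in at least 3 arrays. The share was 54.1% over all genes and 31.2% over those with a mean level above 5. The remaining cytosolic genes, HARS1, SARS1, GARS1 and YARS1, differed by -0.09, -0.05, 0.05 and 0.09, and the intervals of all 4 included 0.

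The mitochondrial enzymes also lay close to 0. Their median difference was -0.01, with 11 of 16 below 0 and 5 above, beside -0.03 for the 18 cytosolic enzymes, with 11 below and 6 above. The middle 50% of the differences ran from -0.11 to 0.02 in the mitochondrial and from -0.10 to 0.04 in the cytosolic set. At an unadjusted p under 0.05 by limma stood 0 of 16 mitochondrial and 1 of 18 cytosolic enzymes. The share was 3.73% over all genes and 6.39% over those with a mean level above 5. No difference between the sets was tested, since members are not replicates of a condition.

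WARS2, the mitochondrial tryptophan enzyme, had the largest mitochondrial difference. It read 5.32 and 4.96 in the controls, against 5.23, 5.51 and 5.38 in the MondoA shRNA clones. The control arrays differed by more than the groups did, and the difference of 0.23 had an interval from -0.23 to 0.69. Without control array 1 it was 0.41 and without control array 2 it was 0.05. SARS2, the serine enzyme, read 6.22 and 6.21 in the controls, against 6.21, 6.66 and 6.22 in the MondoA shRNA clones. Array 2 alone was high, and without it the difference went from 0.15 to 0.00.

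CARS2, the mitochondrial cysteine enzyme, which also makes cysteine persulfides, read 6.75 and 6.84 in the controls, against 6.26, 6.75 and 6.91 in the MondoA shRNA clones. LARS2, the leucine enzyme, read 6.77 and 6.69 in the controls, against 6.37, 6.69 and 6.69 in the MondoA shRNA clones. EARS2, the glutamate enzyme, read 5.52 in every array but MondoA shRNA array 1, which read 5.22. In these 3 genes the low mean came from array 1, and their differences were -0.16, -0.15 and -0.10. Without array 1 that of CARS2 was 0.03. RARS2, the arginine enzyme, read 5.93 and 5.67 in the controls, against 5.63, 5.73 and 5.67 in the MondoA shRNA clones, so control array 1 stood alone. Its difference of -0.12 became 0.01 without that array.

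The other 9 mitochondrial genes, AARS2, FARS2, IARS2, MARS2, NARS2, PARS2, TARS2, VARS2 and YARS2, had differences from -0.06 to 0.05, and every interval included 0. NARS2, the asparagine enzyme, had the widest spread of these, with MondoA shRNA arrays at 6.97, 7.42 and 7.28.

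HARS1 and HARS2 encode the cytosolic and mitochondrial histidine enzymes and lie head to head on chromosome 5, with 84 bases between their annotations. The window of HARS2 (chr5:140691205-140691504, plus strand) therefore also holds the start of HARS1 on the other strand, and it is shown because 2 members share it. It held neither motif.

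HARS2: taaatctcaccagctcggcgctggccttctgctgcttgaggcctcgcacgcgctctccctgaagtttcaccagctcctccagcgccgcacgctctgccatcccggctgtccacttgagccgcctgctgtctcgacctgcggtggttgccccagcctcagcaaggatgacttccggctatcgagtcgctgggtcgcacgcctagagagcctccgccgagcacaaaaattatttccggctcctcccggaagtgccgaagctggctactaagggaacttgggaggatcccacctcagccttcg

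HARS2 read 6.92 and 6.96 in the controls, against 6.61, 6.92 and 6.75 in the MondoA shRNA clones, and HARS1 read 8.35 and 8.30 in the controls, against 8.22, 8.17 and 8.30 in the MondoA shRNA clones. Both had means below control, by -0.18 (interval -0.48 to 0.13) and -0.09 (-0.24 to 0.05), but the lowest array was array 1 for HARS2 and array 2 for HARS1. DND1, on the other side of HARS1, differed by 0.35 in the opposite direction (unadjusted p = 0.0296, adjusted p = 0.833 by limma).

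Enzymes for the same amino acid were set side by side in 16 pairs of a cytosolic and a mitochondrial gene, with EPRS1 paired with EARS2 and with PARS2 and each phenylalanine subunit paired with FARS2. Both differences were below 0 in 7 pairs, both above in 1 and of opposite sign in 7, with WARS1 at 0 in the last. The gap was over 0.3 only in the 2 pairs with EPRS1, at 0.78 against EARS2 and 0.72 against PARS2, the mitochondrial proline enzyme, which read 6.09 in both controls, against 5.98, 6.09 and 6.10 in the MondoA shRNA clones. Elsewhere among these pairs the largest gap was 0.23, between WARS1 and WARS2. No asparagine pair was formed, since NARS1, the cytosolic asparagine gene, was not on the list of members. NARS1 differed by -0.40 and NARS2 by 0.05, further apart than WARS1 and WARS2. The leucine and cysteine pairs had nearly equal differences, -0.16 and -0.15 for leucine and -0.17 and -0.16 for cysteine. MondoA shRNA array 1 was the lowest array in both cysteine genes and in LARS2, while control array 1 stood apart in LARS1.

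**Figure D3:**
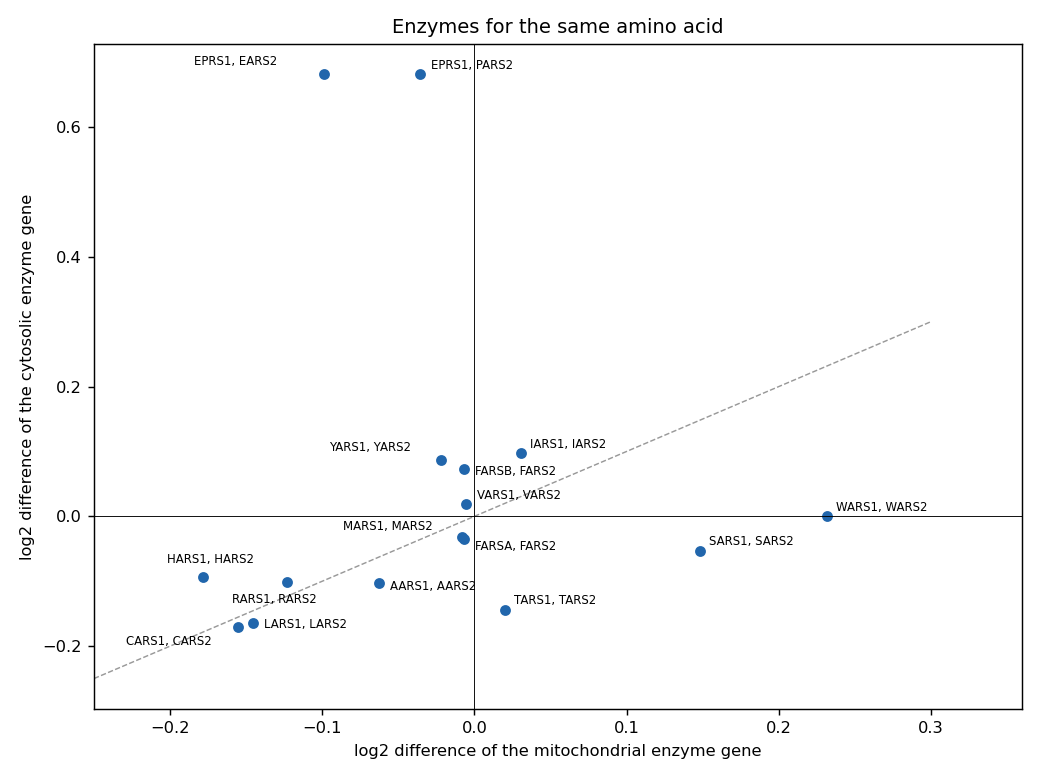
Each point is a pair of genes for the same amino acid, with the log2 difference (MondoA shRNA minus control) of the mitochondrial gene on the horizontal and of the cytosolic gene on the vertical axis; the dashed line marks equality. The 2 points of EPRS1 at 0.68 lie apart from the other 14 pairs. The asparagine genes are not plotted.

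The spread within the groups was of the same order as the differences. For the cytosolic genes the median SD was 0.06 in the controls and 0.09 in the MondoA shRNA clones, and for the mitochondrial genes 0.02 and 0.13. Over genes with a mean level above 5 it was 0.05 and 0.13. MondoA shRNA array 1 was the lowest of the 5 arrays for 22 of 35 members (62.9%), made up of 10 of 18 cytosolic and 12 of 16 mitochondrial genes, against 38.9% of genes with a mean level above 5. Control array 1 was the highest for 9 of 18 cytosolic and 2 of 16 mitochondrial genes, against 20.0% of those genes. Without MondoA shRNA array 1, the members stood at 17 below and 15 above 0, and their median moved from -0.03 to 0.00. Over genes with a mean level above 5 the median moved likewise, from 0.01 to 0.03, with 2655 below and 4420 above. The members thus stayed lower than those genes without that array. The median SD among the other MondoA shRNA arrays was 0.04 for cytosolic and 0.06 for mitochondrial genes, against 0.10 over those genes.

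**Figure D4:**
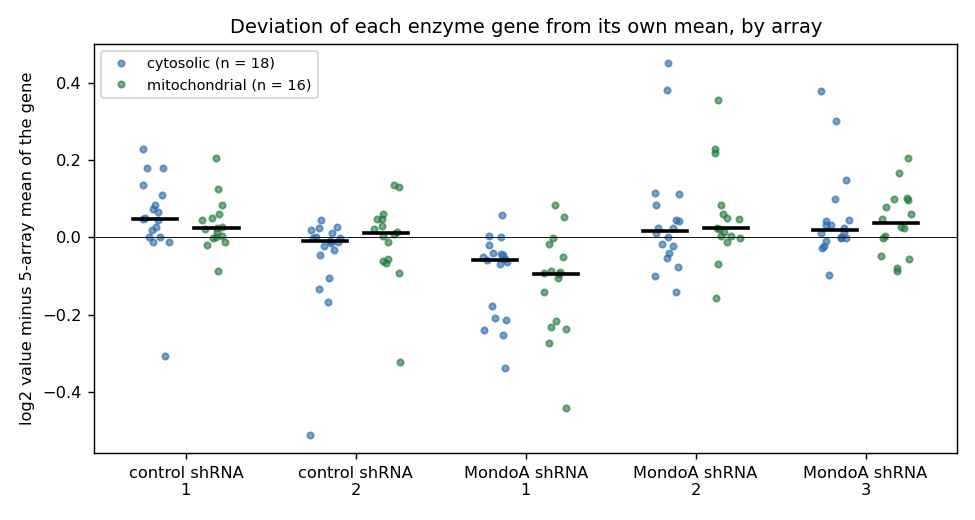
Each point is 1 gene in 1 array, as its log2 value minus its own mean over the 5 arrays (vertical axis), for cytosolic (blue, n = 18) and mitochondrial (green, n = 16) enzymes; bars are medians. MondoA shRNA array 1 has the lowest medians, -0.06 for cytosolic and -0.09 for mitochondrial genes, and the lowest point under each control array is EPRS1.

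A further question was whether synthetases known to respond to ATF4 differed from the others, and their medians lay close together; the difference was not tested. The 11 responsive cytosolic genes (AARS1, CARS1, EPRS1, GARS1, IARS1, LARS1, MARS1, SARS1, TARS1, WARS1 and YARS1) had a median difference of -0.03, with 6 below 0 and 4 above. The 7 other cytosolic genes had a median of -0.04, with 5 below and 2 above. The 5 genes whose windows are printed above with TTGCATCA differed by -0.10 (AARS1), -0.17 (CARS1), 0.10 (IARS1), -0.03 (MARS1) and -0.14 (TARS1), so both directions occurred among them. The 4 with an E-box, IARS1, CARS2, EARS2 and MARS2, differed by 0.10, -0.16, -0.10 and -0.01.

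Other genes of the amino acid response differed more. Of 34 listed, 32 were measured, and an unadjusted p under 0.05 by limma was seen for 6 lower genes and 1 higher gene, where 2.18% of all genes were lower and 1.55% higher, but none passed the adjusted threshold. When only genes without tied values were tested, an alternative chosen after seeing the data, SLC7A11 (adjusted p = 0.028 by limma) and DDIT3 (adjusted p = 0.0325) passed it. The median of the list was -0.01. The cystine transporter gene SLC7A11 read 4.97 and 4.98 in the controls, against 4.17, 4.25 and 4.29 in the MondoA shRNA clones, a difference of -0.74 (adjusted p = 0.349 by limma). STC2, a secreted glycoprotein gene, differed by -0.60 and ATF5, a transcription factor related to ATF4, by 0.42. The other 4 lower genes were DDIT3 (-1.53), CHAC1 (-0.72), SESN2 (-0.58) and ATF3 (-0.44), which were named after their values were seen. The RNA of ATF4 itself differed by -0.02, ASNS, the asparagine synthetase gene, by 0.17 and XPOT, which exports transfer RNA from the nucleus, by -0.18. Among the 35 members EPRS1 alone reached that unadjusted threshold.

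**Figure D5:**
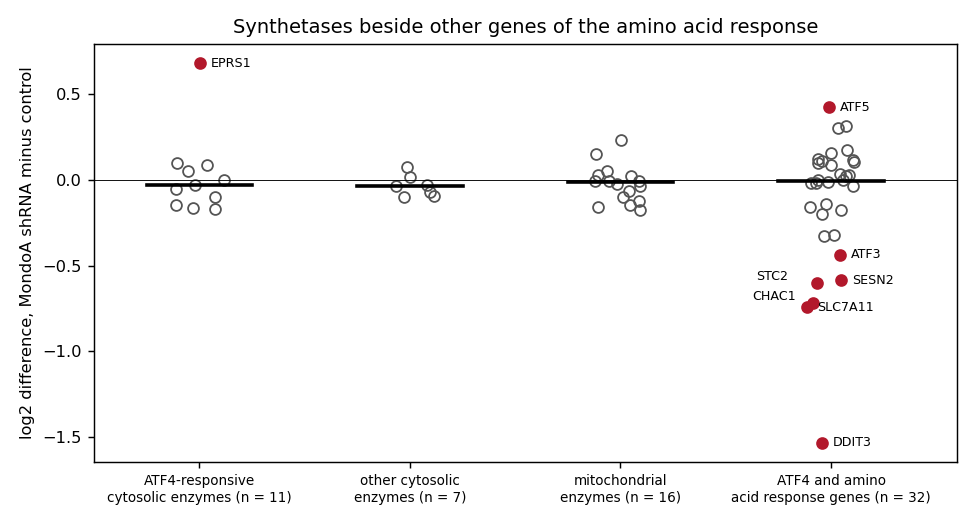
Points are log2 differences (MondoA shRNA minus control, vertical axis) of the genes in 4 groups, filled red where the unadjusted limma p was under 0.05, and bars are medians. The synthetase groups lie near 0 except for EPRS1 at 0.68, and the amino acid response genes run from -1.53 to 0.42.

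A further list held genes for the sensing of uncharged transfer RNA and for the eIF2 step that follows it. Of its 13 genes, 1 was lower at an unadjusted p under 0.05 by limma and 0 were higher, against 2.18% and 1.55% of all genes. That gene, GCN1, encodes the ribosome-bound partner of GCN2, and it read 7.67 and 7.60 in the controls, against 7.24, 6.99 and 7.37 in the MondoA shRNA clones (difference -0.43, adjusted p = 0.833 by limma). The kinase gene EIF2AK4 differed by -0.15. EIF2B4, a subunit of the exchange factor for eIF2, differed by -0.18 and PPP1R15A, which directs dephosphorylation of eIF2, by -0.22.

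Of 10 other measured genes of transfer RNA charging, 0 passed an unadjusted p of 0.05 by limma in either direction, against 3.73% of all genes. NARS1, the cytosolic asparagine enzyme, read 10.50 and 10.17 in the controls, against 9.78, 9.97 and 10.06 in the MondoA shRNA clones, all below both controls. Its difference was -0.40 (interval -0.84 to 0.04, adjusted p = 0.833 by limma). NARS1 lies on chromosome 18, and the 110 genes of that chromosome with a mean level above 5, NARS1 among them, had a median difference of -0.42. The part of the chromosome in the NARS1 value was not tested. SEPSECS, which completes selenocysteine on its transfer RNA, differed by -0.35, with control array 1 and MondoA shRNA array 1 apart from 3 equal arrays, and PSTK, the kinase of the step before, by -0.08.

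Translation factors downstream of charging were near 0. The 6 cytosolic elongation genes ran from -0.17 (EEF1B2) to 0.09 (EEF2K) and EEF2 differed by -0.07. The 8 measured mitochondrial translation factors ran from -0.13 (TUFM) to 0.11 (TSFM), with MTRF1L, a release factor, at 0.03. In both lists 0 genes had an unadjusted p under 0.05 by limma, against 3.73% of all genes.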

How the data were processed

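Gene expression was measured on 5 Affymetrix arrays of Nalm6 clones, grouped by the titles in the labels. The authors summarised probes with RMA in Affymetrix Expression Console 1.1, per the submitters' processing notes, and the deposited values are taken as log2, the scale RMA gives, with 1 value for each probe set after background correction, equalisation of the arrays and median polish. The 33297 probe sets ran from 1.42 to 13.34 with none missing. The number of arrays limits the precision. No detection calls or array dates were used here.

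Probe sets with exactly 1 symbol in the platform annotation (19460) were kept, and those with several (1754) or no symbol (12083) were dropped. Symbols were updated by Entrez number through a RefSeq table (GRCh38.p14, 19429 matched). The probe set with the highest mean was kept for each of 18417 genes.

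All genes were fitted together with limma 3.58.1 in R 4.3.3 (empirical Bayes, two-sided, Benjamini-Hochberg over all genes, threshold 0.05). The step was tested on simulated data without tied values. The deposited arrays hold many ties, so that test does not cover them. Nothing in the labels says whether clones came from separate cultures beyond their being separate clones, so p-values measure the spread between these arrays. The members and lists, including the ATF4-responsive subset, were chosen with earlier results of these data known. Full values are given for AIMP1, the 6 cytosolic and 6 mitochondrial enzymes of largest absolute difference and pairs with a gap over 0.3, and, outside the members, for up to 3 genes of lowest p per list; other genes named were chosen after their values were seen. Alternatives left out each array, normalised or centred again, kept genes with a mean above 5, averaged probe sets, used the title number as a block, weighted arrays (statmod 1.5.0), used an intensity trend or no moderation, or kept genes without tied values, the last chosen after seeing the data.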

Additional observations from a re-analysis of the deposited data

How the results depend on the processing

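No member passed the adjusted threshold under any of the 14 alternatives, and EPRS1 stayed above 0 in all of them, from 0.58 to 0.79, with an adjusted p from 0.101 (genes without tied values) to 0.835. Its separation from both controls means that leaving out an array could not turn it. By limma 0 genes passed the threshold (687 at unadjusted p under 0.05). That count was 2 after quantile normalisation of the deposited values, 2 after centring, 3 with ordinary variances, 60 over genes free of tied values (SLC7A11, DDIT3, CD79A and DNTT among the genes named, with adjusted p from 0.028 to 0.044), and between 0 and 752 when an array was dropped. Without a control array the other one is assumed to vary like the MondoA shRNA arrays. The count of 1 member at an unadjusted p under 0.05 by limma became 4 when normalised again (CARS1, HARS2 and TARS1 in addition). It was 4 with the replicate block, 2 with array weights and 2 with any 1 MondoA shRNA array left out. With the block EPRS1 is not among them (unadjusted p = 0.132 by limma). Leaving out control array 2 also took EPRS1 (0.58) out and brought in KARS1 (-0.14), LARS1 (-0.29) and RARS2 (-0.25). The block pairs clones that share a title number and nothing else, and it sets MondoA shRNA array 3 aside. Across genes with a mean above 5, control array 1 minus 2 correlated at -0.29 with MondoA shRNA array 1 minus 2, so the numbers were not used as pairs. The median of the cytosolic set was 0.049 and that of the ATF4-responsive subset 0.068 without tied values, where 13 members remain.

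Of 467 alternative values of members 25 changed sign, in 15 members whose main difference was at most 0.16 in size. With array weights these were MARS1 (0.042), CARS2 (0.014), MARS2 (0.103), TARS2 (-0.015) and YARS2 (0.049). With the block they were VARS1 (-0.127) and IARS2 (-0.012). With 1 array left out the ranges were -0.139 to 0.257 for FARSB, -0.010 to 0.205 for IARS1, -0.121 to 0.025 for SARS1, -0.127 to 0.142 for VARS1, -0.102 to 0.003 for AARS2, -0.288 to 0.034 for CARS2, -0.013 to 0.080 for IARS2, -0.093 to 0.044 for MARS2, -0.045 to 0.181 for NARS2, -0.055 to 0.002 for PARS2, -0.254 to 0.007 for RARS2, -0.001 to 0.224 for SARS2, -0.017 to 0.048 for TARS2 and -0.077 to 0.045 for YARS2. Outside the members, MLXIP ran from -0.065 to 0.027 (0.027 with the block), MTRF1L from -0.015 to 0.080, BPNT1 from -0.046 to 0.222 and ATF4 from -0.032 to 0.014, with 0.001 normalised again, 0.03 with probe sets averaged and 0.002 with array weights. The cause of these changes was not tested.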
